A study of Arabidopsis thaliana with 64 samples.

Results

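The Arabidopsis genes AT4G33720, AT2G43590 and AT1G72910 were followed over a series of arrays on lines named for flowering loci. They are 3 of the 5164 genes that the platform annotation names, and every probe annotated to them was taken: 1 for AT4G33720, 4 for AT2G43590 and 1 for AT1G72910, which makes 6 of 13824 probes. The genes were chosen by measured values of these arrays, AT4G33720 by its difference in the FD line and AT2G43590 and AT1G72910 by theirs in the FE line. Those differences are given below as a description, without a test. All 6 probes had a ratio on each of the 64 arrays.

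AT4G33720 encodes a protein of the CAP family, the secreted cysteine-rich proteins to which the pathogenesis-related protein PR-1 belongs. PR-1 accumulates in leaves under attack by pathogens and is widely used as a marker of salicylate-dependent defence. AT2G43590 encodes a chitinase, one of the enzymes that cut chitin, a polymer of fungal cell walls. AT1G72910 encodes a protein of the TIR-NBS type, whose TIR domain and nucleotide-binding site are also found in many intracellular immune receptors of plants.

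Each array compared total RNA of a line with total RNA of a comparator in 2 channels, and each group of a line and a day length has 2 arrays, 1 with the dyes swapped. The lines CO, FT, FD, FE, FWA, FHA and GI are named for loci of the photoperiod pathway, through which long days advance flowering, and FCA, FPA, FVE and FY for loci of the autonomous pathway, which acts whatever the day length. GAI is named for a repressor of gibberellin responses and SOC1 for an integrator of flowering pathways, and FLC20 carries the name of a floral repressor. These 14 lines were each measured in 2 day lengths, 16 h and 8 h of light, and harvested at 12 days of age, FLC20 at 9 days. FLC20 was set against C24 and the other 13 lines against a wild type, which the labels name as Ler for FHA under 16 h only. The comparator channel of both FLC20 16 h arrays is labelled WT and their descriptions name C24, which was followed. The double mutants FCAVRN1 and FCAVRN2, 12 days old, form 4 groups set against wild type or against FCA. The sources used here do not give the alleles, the nature of FLC20 or the tissue, nor whether arrays shared their wild type RNA. None of the 3 root and 7 seed storage markers looked up has a named probe, so the tissue was not checked against markers.

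All values below are log2 ratios of line over comparator, as deposited. The likely reading of a positive value is a higher level in the line, since unswapped arrays carry the line in channel 1 and the descriptions set each line against its comparator. Were the sign the other way, rises and falls would change places throughout. A ratio does not tell a lower level in the line from a higher level in its comparator, and fewer cells of a type cannot be told apart from less RNA per cell. For FVE under 16 h, the descriptions speak of short days, and the titles were followed. Titles and descriptions also disagree for both FCAVRN1 groups. Both arrays of GI under 16 h carry the same biological replicate number and entered the tests as 1 averaged replicate. Of 992 pairs of arrays with the same orientation and from different groups, 7 correlated below -0.3 over all probes. The 2 arrays of a group had a median correlation of 0.0286, and -0.509 for GI under 8 h. In every other group the 2 arrays carry different biological replicate numbers. The labels do not say whether such replicates were separately grown plants, so the errors and p-values measure the spread between arrays. Tests are two-sided limma tests fitted to all probes and arrays, with p-values adjusted by Benjamini-Hochberg over 13824 probes. A probe is said to be called, to rise or to fall where the adjusted p lay under 0.05.

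The 6 probes varied to very different degrees over the 64 arrays. The probe of AT4G33720 had an SD of 0.76, from -2.66 to 1.42, the 23rd largest of all probes. The chitinase probes SP0000115879, SP0000123630 and SP0000123639 had SDs of 0.71, 0.80 and 0.73, which rank 35, 19 and 30. The fourth chitinase probe, SP0000128318, had an SD of 0.23 and stayed between -0.54 and 0.56. AT1G72910 had an SD of 0.36 and ran from -0.61 to 1.06. The median SD over all probes was 0.20. Lines differ by design and the choice of members favoured probes that vary, so these ranks describe the members.

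The 3 variable chitinase probes gave nearly the same profile. Over the 32 groups their fitted means correlated at r between 0.98 and 0.99, and over the 64 single arrays at r between 0.96 and 0.97. SP0000128318 did not follow them, with r of -0.18, -0.22 and -0.18 over groups. The points share arrays, and no probe sequences were used here, so which transcript each probe detects was not tested. The genes themselves moved apart from each other. Over the 32 groups r was 0.24 between AT4G33720 and the averaged chitinase probes, -0.11 between AT4G33720 and AT1G72910, and -0.39 between AT2G43590 and AT1G72910.

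The chitinase AT2G43590 had lower ratios under 16 h than under 8 h of light in nearly every line. Averaged over the 11 wild type-compared lines other than FD and FE, SP0000123630 stood at -0.47 ± 0.60 under 16 h and at 0.38 ± 0.61 under 8 h (SD over lines, n = 11). SP0000115879 stood at -0.49 ± 0.49 under 16 h and 0.34 ± 0.48 under 8 h, and SP0000123639 at -0.41 ± 0.48 under 16 h and 0.40 ± 0.48 under 8 h. The fourth probe stood at 0.01 ± 0.14 under 16 h and -0.02 ± 0.14 under 8 h. The day length difference, 16 h minus 8 h, was thus larger than the SD between lines for the variable probes and near 0 for the fourth.

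**Figure D1:**
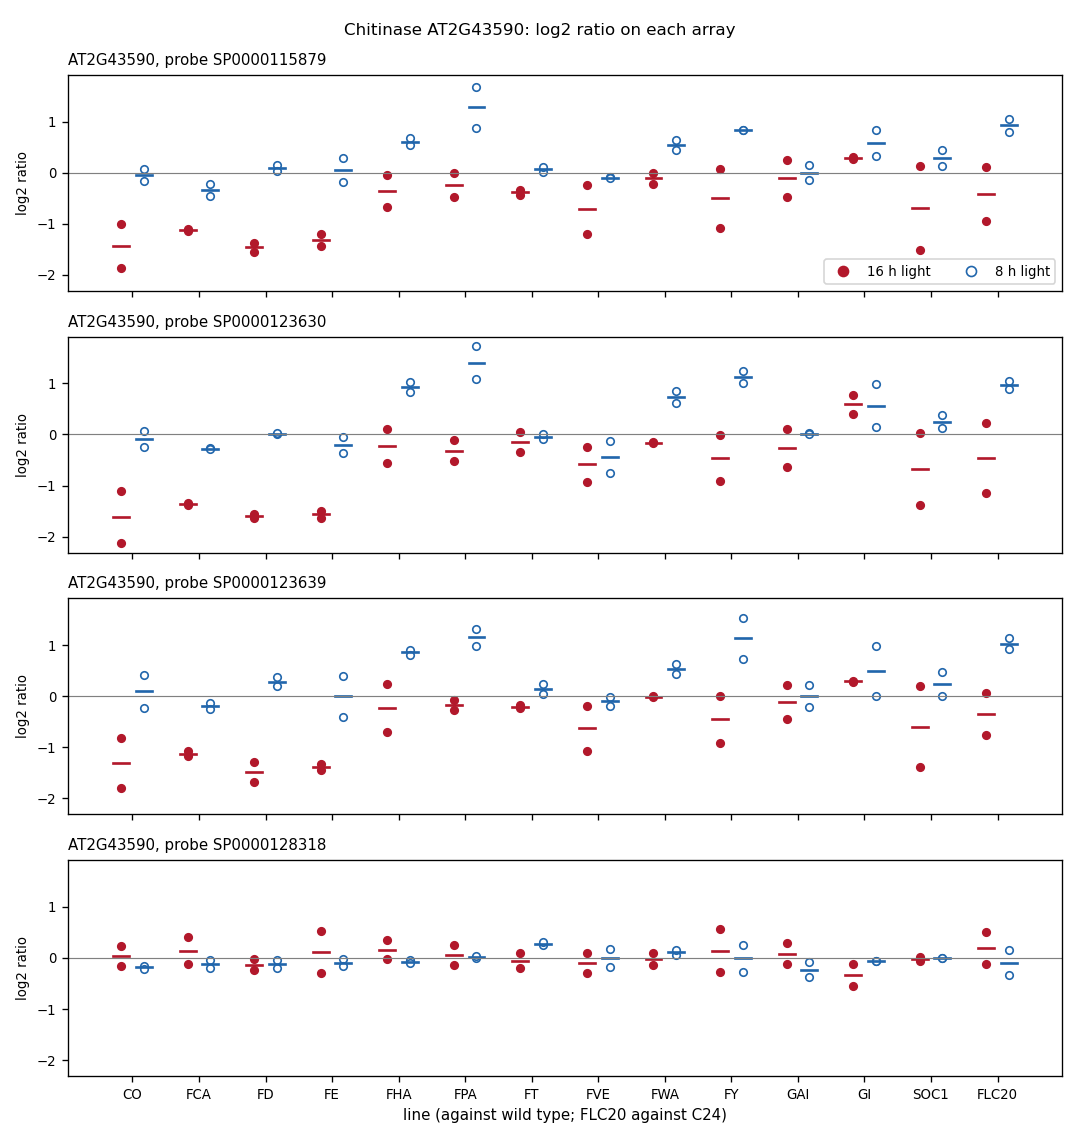
Log2 ratio of line over comparator on each array (vertical axis) for the 4 probes of AT2G43590 in the 14 lines (horizontal axis), with 16 h arrays as filled red points left of the open blue points for 8 h and short bars for the mean of the 2 arrays. On the upper 3 panels the 16 h points lie at or below the 8 h points in most lines, whereas the lowest panel stays between -0.54 and 0.56.

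The values of SP0000123630 show how this difference was spread over the lines. In CO, the line of a transcription factor that activates FT in long days, the ratios were -2.12 and -1.10 under 16 h, against 0.07 and -0.24 under 8 h. FHA, the line of the blue light receptor cryptochrome 2, had -0.55 and 0.10 under 16 h, against 0.82 and 1.03 under 8 h. For FWA the arrays gave -0.17 and -0.16 under 16 h, against 0.62 and 0.86 under 8 h. In these 3 photoperiod lines the 16 h and 8 h arrays did not overlap, but the lines differed in where they lay: CO was strongly negative under 16 h and near 0 under 8 h, whereas FHA and FWA were near 0 or weakly negative under 16 h and positive under 8 h. FT, the line of the mobile flowering signal, had 0.04 and -0.35 under 16 h, against -0.09 and 0.00 under 8 h. GI, the line of a clock-associated protein, had 0.78 and 0.40 under 16 h, against 0.15 and 0.98 under 8 h. On this probe FT and GI were the photoperiod lines whose 16 h and 8 h arrays overlapped, and GI alone was positive on all 4 arrays. The arrays of both lines were separated on SP0000115879, and those of FT on SP0000123639 as well.

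Among the autonomous lines, FCA, the line of an RNA-binding protein, had -1.38 and -1.34 under 16 h, against -0.27 and -0.29 under 8 h. FPA, named for another RNA-binding protein, had -0.12 and -0.52 under 16 h, against 1.07 and 1.72 under 8 h. FY, the line of a protein of the RNA 3′ end processing machinery, had -0.92 and -0.01 under 16 h, against 1.25 and 1.00 under 8 h. In FCA, FPA and FY the arrays of the 2 day lengths were separated, with FCA negative throughout and FPA and FY positive under 8 h only. FVE had -0.93 and -0.24 on the arrays titled 16 h, against -0.75 and -0.12 under 8 h, and these overlapped. GAI had -0.64 and 0.11 under 16 h, against 0.02 and 0.00 under 8 h, and SOC1 had 0.03 and -1.38 under 16 h, against 0.38 and 0.12 under 8 h. FLC20, set against C24, had 0.22 and -1.15 under 16 h, against 1.04 and 0.89 under 8 h. GAI overlapped between day lengths, whereas both 16 h arrays of SOC1 and of FLC20 lay below both 8 h arrays. These values are those of SP0000123630. On SP0000115879 and SP0000123639 the arrays of FVE were separated and those of SOC1 overlapped.

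Over the 28 arrays of each day length, the lowest, median and highest values of SP0000123630 were -2.12, -0.53 and 0.78 under 16 h, against -0.75, 0.09 and 1.72 under 8 h. SP0000115879 had -1.87, -0.48 and 0.31 under 16 h, against -0.46, 0.22 and 1.68 under 8 h. SP0000123639 had -1.80, -0.36 and 0.30 under 16 h, against -0.41, 0.39 and 1.53 under 8 h. The mean was lower under 16 h in 14 of 14 lines for SP0000115879 and SP0000123639 and in 13 of 14 for SP0000123630, the exception being GI with a difference of 0.03. Both 16 h arrays lay below both 8 h arrays in 12, 10 and 11 of the 14 lines for SP0000115879, SP0000123630 and SP0000123639. Among all probes, 0.210% had such a separation in at least 10 lines. That cut was set at the lowest count of these chitinase probes, and the 14 lines include FE, by which the gene was chosen. The share is therefore a description. SP0000128318 had it in 2 lines and the opposite separation in 2.

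In the test of the mean day length difference over the 11 lines, the ratio of AT2G43590 fell by 0.85 ± 0.12 on SP0000123630, a 1.81-fold lower ratio under 16 h (limma adjusted p = 5.75e-05). It fell by 0.83 ± 0.12 on SP0000115879 (adjusted p = 8.82e-05) and by 0.81 ± 0.12 on SP0000123639 (adjusted p = 8.82e-05). SP0000128318 differed by 0.03 ± 0.06 (adjusted p = 0.822). Of all probes, 3.67% were called in this comparison, 2.56% lower and 1.11% higher under 16 h, against 4 of the 6 probes described here, 3 lower and 1 higher. Ordered from the lowest difference, the 3 chitinase probes stood at places 4, 3 and 6 of 13824. All 3 stayed called with any 1 of the 44 arrays left out, with differences from -0.92 to -0.73. The dye-swapped arrays alone gave mean differences of -0.90, -0.93 and -0.76 for SP0000115879, SP0000123630 and SP0000123639, and the unswapped arrays alone -0.75, -0.78 and -0.86. If the deposited ratios of swapped arrays had not yet been turned by the authors, the differences would be 0.07, 0.07 and -0.05, with no call. Since the lines may share their wild type RNA at each day length, they may not be independent. For the same reason, leaving out FE, which chose the gene, need not free this test from that choice. FLC20, whose comparator was C24, was outside this test and differed by -1.35, -1.43 and -1.38 on these probes.

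No day length difference within a single line was called for any member, in 84 pairs of probe and line. At an unadjusted p under 0.05 there were 31. The share of all probes called was 0.130% in GAI, 0.0145% in GI, 0.00723% in FLC20 and 0 in the other 11 lines. With array weights 3 of the 84 were called, and 3 without FLC20 under 16 h replicate 1, 2 without FPA under 8 h replicate 2, and 1 each without FY under 16 h replicate 2 or either SOC1 16 h array.

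The line means of the chitinase were spread as well, though the F-test below called only SP0000123630. On SP0000123630, the mean of both day lengths was highest in GI at 0.58 ± 0.23 and in FPA at 0.54 ± 0.19, followed by FHA, FY, FWA and FLC20 between 0.25 and 0.35 (SE). FT, GAI and SOC1 lay between -0.21 and -0.10, FVE at -0.51, and FD, FCA, CO and FE between -0.79 and -0.88. The largest step between neighbours in this order, 0.35 between FLC20 and FT, compares with a standard error of 0.27 for a difference between lines. Of the 13 steps, 3 exceeded that standard error, so most neighbours did not differ beyond it. The steps are a description and no test of lines further apart, and the order includes FE, by which the gene was chosen. The F-test over the 11 lines called SP0000123630 (adjusted p = 0.00773) and not SP0000115879 (0.0941), SP0000123639 (0.106) or SP0000128318 (1). This test called 0.210% of all probes and 1 of the 6 described here.

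In the FE line, by which AT2G43590 was chosen, SP0000123630 had -1.50 and -1.63 under 16 h, against -0.06 and -0.35 under 8 h. SP0000115879 had -1.20 and -1.44 under 16 h and 0.28 and -0.19 under 8 h, and SP0000123639 had -1.33 and -1.45 under 16 h and 0.40 and -0.41 under 8 h. The line means were -0.64 on SP0000115879, -0.88 on SP0000123630, -0.70 on SP0000123639 and 0.01 on SP0000128318, and the negative values of FE came almost wholly from the 16 h arrays. Of all probes, 0.253% were called in FE.

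FD, a line that did not choose the chitinase, also had low ratios under 16 h and ratios near 0 under 8 h. SP0000123630 had -1.64 and -1.55 under 16 h, against 0.00 and 0.02 under 8 h. SP0000115879 had -1.55 and -1.37 under 16 h, against 0.15 and 0.03 under 8 h, and SP0000123639 had -1.29 and -1.67 under 16 h, against 0.38 and 0.19 under 8 h. Both 16 h arrays of FD were thus about 1.3 or more below 0 and its 8 h arrays at or above 0, so the sign was negative on 2 of its 4 arrays. Over both day lengths the ratio fell by 0.79 ± 0.19 on SP0000123630 (limma adjusted p = 0.00938) and by 0.69 ± 0.19 on SP0000115879 (adjusted p = 0.0263). SP0000123639 was at -0.60 ± 0.19 (adjusted p = 0.0501) and SP0000128318 at -0.12 ± 0.10 (adjusted p = 0.579). In FD 5.85% of all probes were called, 2.79% higher and 3.06% lower. Leaving out any 1 of the 4 FD arrays ended both chitinase calls, with adjusted p from 0.0502 to 0.167 and log2 values from -0.81 to -0.62. Relative to the average of the other lines they ended too, at -0.67 (adjusted p = 0.102) and -0.56 (adjusted p = 0.201).

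The CAP gene AT4G33720 was higher in FD on all 4 arrays, the difference by which it was chosen. Its log2 ratios were 0.78 and 1.34 under 16 h, and 1.13 and 0.82 under 8 h, with a mean of 1.02 ± 0.30, a 2.02-fold higher ratio. FE lay on the opposite side, with -1.32 and -1.07 under 16 h and -0.62 and -0.49 under 8 h and a mean of -0.87 ± 0.30 (limma adjusted p = 0.298). FCA was negative on all 4 arrays as well, with -0.86 and -0.94 under 16 h and -0.84 and -0.64 under 8 h, a mean of -0.82 ± 0.30 (adjusted p = 0.735). FWA, the line of a homeodomain gene whose ectopic expression delays flowering, was positive on all 4, with 0.39 and 0.60 under 16 h and 0.52 and 1.42 under 8 h, a mean of 0.73 ± 0.30 (adjusted p = 0.261). The arrays of FD and FWA did not overlap those of FE and FCA. These were the highest and lowest lines for this gene, and how many of all probes have such a gap was not counted.

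Some lines had 1 strongly negative array beside another near or above 0. FVE had -2.66 and 0.18 on the arrays titled 16 h, and -0.80 and 0.71 under 8 h. FT had -2.01 and 0.42 under 16 h, and 0.27 and 0.03 under 8 h. SOC1 had -0.08 and -1.95 under 16 h, and -0.10 and 0.15 under 8 h. GI had -1.26 and 0.13 under 16 h, and -0.36 and -0.35 under 8 h. In each of these lines the lowest value was a 16 h array, on a dye-swapped array in FVE, FT and GI and on an unswapped one in SOC1.

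The remaining lines stayed closer to 0. FHA had 0.57 and 0.31 under 16 h, and -0.11 and 0.66 under 8 h. FY had -0.61 and -0.69 under 16 h, and -0.50 and 0.05 under 8 h. GAI had 0.00 and 0.26 under 16 h, and 0.30 and 0.67 under 8 h. FY was thus negative on 3 of its 4 arrays and GAI above 0 on all 4, with 1 array at nearly 0. CO lay between -0.00 and 0.29, FPA between -0.55 and 0.30 and FLC20 between -0.25 and 0.63.

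Ordered by the mean of both day lengths, FD and FWA were highest for AT4G33720, then FHA at 0.36, GAI at 0.31, FLC20 at 0.18, CO at 0.12 and FPA at -0.15. FT followed at -0.32, FY at -0.44, GI at -0.46, SOC1 at -0.50 and FVE at -0.64, and FCA and FE were lowest. The largest step between neighbours was 0.37, between FWA and FHA. It was below the standard error of 0.42 for a difference between lines, so no neighbours in this order differed beyond it. Steps between neighbours are no test of lines further apart, and the order includes FD, by which the gene was chosen. The F-test over the 11 lines did not call the gene (adjusted p = 0.686). Set between classes, the 4 autonomous lines minus 5 photoperiod lines (CO, FHA, FT, FWA, GI) gave -0.60 ± 0.21 (limma adjusted p = 0.392). That comparison called 0.231% of all probes and 0 of the 6 described here, 1 of them at an unadjusted p under 0.05.

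Over the 11 lines the mean of AT4G33720 was -0.36 ± 0.61 under 16 h and 0.03 ± 0.46 under 8 h (SD over lines, n = 11), a difference of -0.39 ± 0.19 that was not called (adjusted p = 0.249). The swapped arrays gave -0.80 and the unswapped ones 0.01, and the swapped arrays include the low arrays of FVE, FT and GI. A difference between the orientations was not tested.

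**Figure D2:**
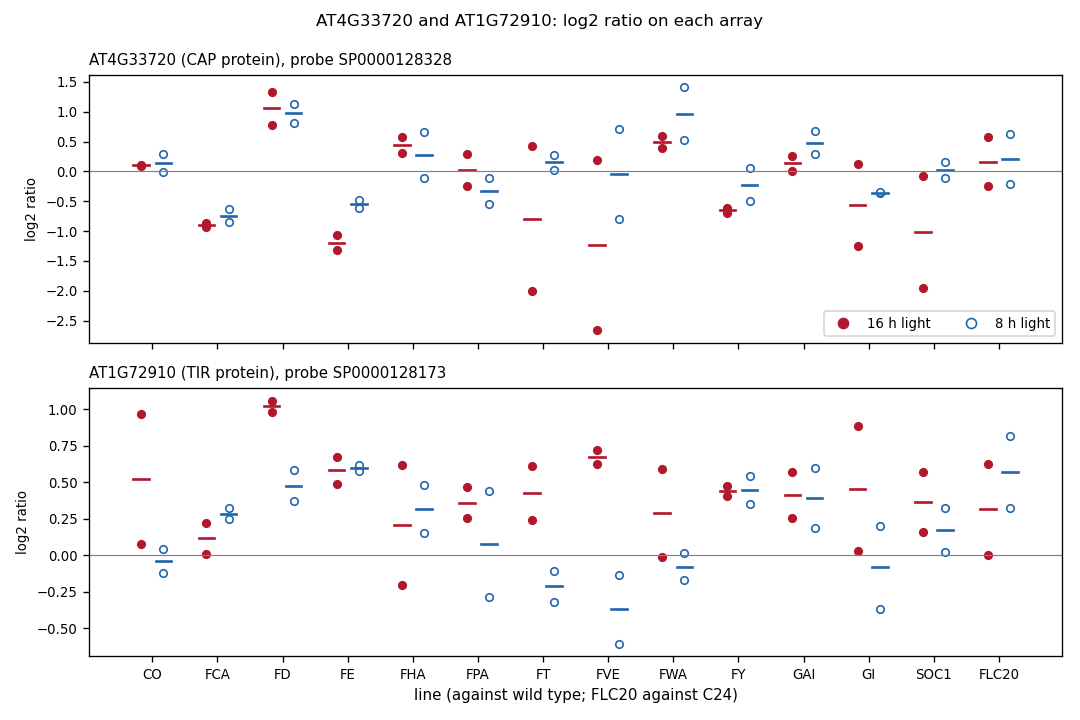
Log2 ratio of line over comparator on each array (vertical axes) for AT4G33720 and AT1G72910 in the 14 lines (horizontal axis), with 16 h arrays as filled red points left of the open blue points for 8 h and short bars for the mean of the 2 arrays. AT4G33720 is above 0 on all arrays of FD and FWA and below 0 on all arrays of FE and FCA, and AT1G72910 is above 0 on 26 of 28 arrays under 16 h and on 20 of 28 under 8 h.

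The TIR gene AT1G72910 had ratios above 0 in most lines. Under 16 h the 28 arrays of the 14 lines had a lowest value of -0.20, a median of 0.48 and a highest of 1.06, against -0.61, 0.23 and 0.82 under 8 h. Over the 11 lines it rose by 0.24 ± 0.04 (limma adjusted p = 0.000125), a 1.18-fold higher ratio, with 34 of 44 arrays above 0. The swapped arrays gave a mean of 0.16 and the unswapped ones 0.31. Of all probes, 18.9% were called in this mean, 10.3% higher and 8.60% lower, and AT1G72910 stood at place 87 from the highest of 13824. It was the only 1 of the 6 probes called, no larger a share than over all probes, and the others lay between -0.16 and -0.01. The lines may share their wild type RNA and so may not be independent. Leaving out FE, which chose the gene, thus need not free this mean from that choice. The call of AT1G72910 stayed with any 1 array left out, from 0.22 to 0.26. If swapped arrays had still to be turned, the value would be 0.08 (adjusted p = 0.461).

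Among single lines, AT1G72910 was highest in FD, which did not choose it. Its ratios in FD were 0.98 and 1.06 under 16 h and 0.58 and 0.38 under 8 h, all above 0. It rose there by 0.75 ± 0.14 (limma adjusted p = 0.000807), a 1.68-fold higher ratio, and stayed called without any 1 of the 4 arrays (adjusted p from 0.0071 to 0.0222). Taken relative to the average of the other lines, its value was 0.48 (adjusted p = 0.103). In FE, by which it was chosen, the ratios were 0.68 and 0.49 under 16 h and 0.62 and 0.58 under 8 h, with a mean of 0.59 ± 0.14 and a range within the spread of FD. In FLC20 they were 0.01 and 0.63 under 16 h and 0.82 and 0.32 under 8 h, and the gene rose by 0.44 ± 0.14 (adjusted p = 0.0456). In FLC20 6.09% of all probes were called, 4.30% higher and 1.79% lower. This call ended without FLC20 under 8 h replicate 1 at 0.29 (adjusted p = 0.522) and without FLC20 under 16 h replicate 2 at 0.31 (adjusted p = 0.476). Leaving out any 1 FD array ended the FLC20 call too. It also ended in 7 of 10 other alternatives, among them scaled arrays at 0.31 (adjusted p = 0.199) and quantile normalization at 0.30 (adjusted p = 0.279).

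FY had 0.41 and 0.48 under 16 h and 0.35 and 0.55 under 8 h, the narrowest set above 0 after FE, with a mean of 0.45 ± 0.14 (limma adjusted p = 0.0835). GAI had 0.25 and 0.57 under 16 h and 0.60 and 0.19 under 8 h, and FCA had 0.01 and 0.22 under 16 h and 0.25 and 0.32 under 8 h. SOC1 had 0.16 and 0.57 under 16 h and 0.02 and 0.33 under 8 h. All 4 arrays were above 0 in FY, GAI, FCA and SOC1, and none of these lines was called. In the order of the line means, the largest step was 0.16 between FD and FE, below the standard error of 0.19 for a difference between lines. The steps are a description and no test, and the order includes FE, by which the gene was chosen. The F-test over the 11 lines did not call AT1G72910 (adjusted p = 1).

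The ratio of AT1G72910 differed with day length in the direction opposite to the chitinase. It averaged 0.39 ± 0.15 under 16 h and 0.08 ± 0.26 under 8 h (SD over lines, n = 11) and was higher under 16 h in 8 of the 11 lines. FVE had 0.72 and 0.62 on the arrays titled 16 h, against -0.61 and -0.13 under 8 h. FT had 0.61 and 0.24 under 16 h, against -0.10 and -0.32 under 8 h. CO had 0.08 and 0.97 under 16 h, against 0.05 and -0.12 under 8 h. In these 3 lines and in FD both 16 h arrays lay above both 8 h arrays, and in FCA both lay below. How many of all probes are separated in as many lines was not counted, so this is a description. FLC20 differed by -0.25, with overlapping arrays. GI had 0.03 and 0.88 under 16 h, against -0.36 and 0.20 under 8 h, which overlapped. FHA ranged from -0.20 to 0.62, FPA from -0.29 to 0.47 and FWA from -0.17 to 0.59.

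The mean difference of AT1G72910 over the 11 lines, 16 h minus 8 h, was 0.31 ± 0.08 (limma adjusted p = 0.0344). It was 0.10 on the swapped and 0.51 on the unswapped arrays, and the call ended when any 1 of 18 of the 44 arrays was left out (adjusted p up to 0.0699 with 0.27 to 0.34 as the range of values over all 44). Without FVE, whose day length is in doubt, it was 0.23 (adjusted p = 0.166), and with the replicate number as a random block 0.31 (adjusted p = 0.0664). Here too the lines may share their wild type RNA.

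Over single lines the 6 probes gave 78 pairs of probe and line that had not served to choose a member, and 4 were called, with 23 at an unadjusted p under 0.05. The calls were AT2G43590 on 2 probes and AT1G72910 in FD and AT1G72910 in FLC20. FD and FLC20 were also the lines with the largest shares of all probes called. No member was called in GI, where 1.17% of all probes were, in FY with 1.82%, in FWA with 0.543% or in GAI with 0.383%. The shares were 0.0723% in FCA and in FPA, 0.0362% in FHA, 0.0289% in SOC1, 0.0145% in FVE, 0.00723% in FT and 0 in CO, again with no member called.

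The double mutants of FCA were the last groups examined. FCAVRN2 under 16 h, set against FCA, had 0.29 and 0.22 on the chitinase probe SP0000123630, 0.32 and 0.33 for AT4G33720 and 0.33 and -0.21 for AT1G72910. FCAVRN2 under 8 h, set against wild type, had 0.52 and 0.33, 0.57 and 0.15, and -0.06 and -0.08 for the same probes. FCAVRN1 against wild type had 0.50 and 0.30, -0.45 and 0.17, and 0.00 and 0.49, and FCAVRN1 against FCA had 0.20 and -0.36, 0.01 and -0.31, and -0.06 and -0.16. FCAVRN2 was thus positive on all 4 of its arrays for SP0000123630 and AT4G33720, under 16 h relative to FCA and under 8 h relative to wild type. Under 8 h, where both were set against wild type, FCA was negative on both arrays for these probes. A difference between FCA and the double mutants was not tested. None of the 24 pairs of probe and group was called by limma, 1 at an unadjusted p under 0.05. The shares of all probes called were 7.85% in FCAVRN2 against FCA, 0.00723% in FCAVRN2 against wild type, 0.0145% in FCAVRN1 against wild type and 0 in FCAVRN1 against FCA.

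Relatives of the 3 genes were measured as well. Of the other CAP genes 9 were measured on 10 probes. In the mean of 11 lines, where 18.9% of all probes were called, 1 of these 10 fell and 0 rose, with a median of -0.02, against -0.00 over all probes. The one that fell was AT5G57625, by 0.19 ± 0.07 (limma adjusted p = 0.0355), and it stayed called in 30 of 44 fits with 1 array left out. In FD, where 5.85% were called, 1 fell and 0 rose, with a median of -0.08 against 0.00 over all probes. It was AT4G33730, which follows AT4G33720 directly in the gene order of TAIR10.1, at -0.32 ± 0.08 (adjusted p = 0.019). Its FD arrays had -0.19 and -0.93 under 16 h and -0.11 and -0.03 under 8 h, and without the array at -0.93, FD under 16 h replicate 2, the value was -0.13 (adjusted p = 0.589). In the day length difference, where 3.67% were called, 0 of the 10 probes were, with a median of -0.09 against 0.00 over all probes.

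Of the other chitinase genes only AT2G43610 was measured, on 2 probes, and it lies the second gene after AT2G43590. Its day length differences over the 11 lines were 0.14 ± 0.11 and -0.03 ± 0.04, not called (adjusted p = 0.535 and 0.74), and in FD it stood at 0.06 and -0.12. In FLC20, where 6.09% of all probes were called, 1 probe fell, by 0.28 ± 0.07 (limma adjusted p = 0.0179). The other was at -0.24 ± 0.18 (adjusted p = 0.438). The call stayed in 1 of 4 fits with 1 FLC20 array left out (adjusted p up to 0.306). A difference between AT2G43610 and AT2G43590 was not tested.

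The TIR genes AT1G72890 and AT1G72900, which precede AT1G72910 in the gene order, were measured on 2 probes each. AT1G72900, the direct neighbour, rose on SP0000127240 in the mean of 11 lines by 0.15 ± 0.04 (limma adjusted p = 0.0038), in FD by 0.48 ± 0.12 (adjusted p = 0.0153) and in FLC20 by 0.40 ± 0.12 (adjusted p = 0.045), comparisons in which AT1G72910 rose as well. Its FD arrays had 0.68 and 0.69 under 16 h and 0.23 and 0.31 under 8 h, higher under 16 h as for AT1G72910. The first of these calls stayed in all 44 fits with 1 array left out, and the FD and FLC20 calls ended without any 1 array of the line (adjusted p from 0.0607 to 0.321). The other probe of AT1G72900, SP0000128188, stood at -0.02, 0.13 and 0.09 in these comparisons, not called. Of all probes, 18.9% were called in the mean of 11 lines, 5.85% in FD and 6.09% in FLC20. AT1G72890 fell in FD on 1 probe by 0.35 ± 0.11 (adjusted p = 0.0443), a call that ended without any 1 FD array, with the other at -0.01. Whether these similar genes share signal on the array was not tested.

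**Figure D3:**
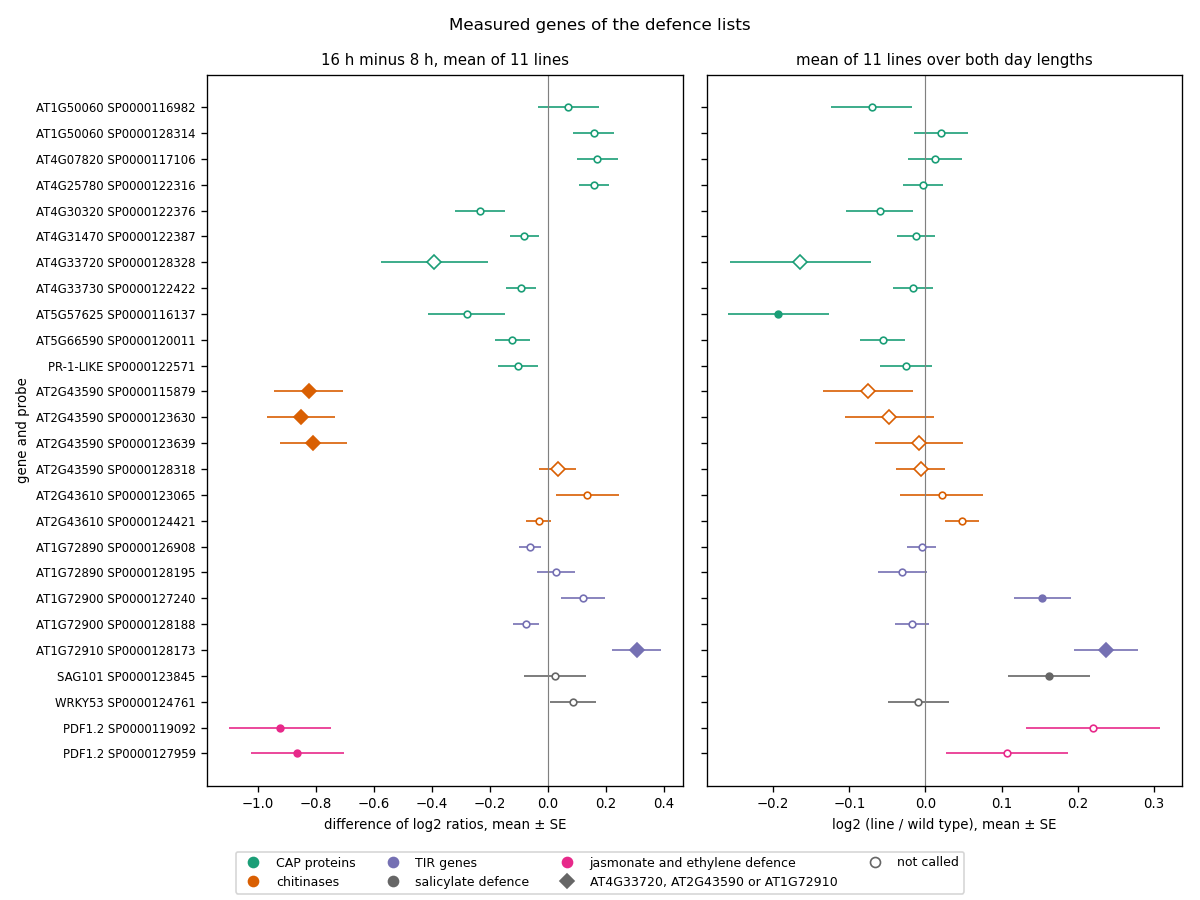
Mean ± SE of the log2 ratio for each measured probe of the defence lists, with the 16 h minus 8 h difference over 11 lines on the left and the mean of 11 lines over both day lengths on the right. Diamonds mark AT4G33720, AT2G43590 and AT1G72910, filled symbols are called, and 3 probes of AT2G43590 and both of PDF1.2 lie farthest to the left in the left panel, from -0.92 to -0.81.

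Of the wider defence lists, 2 of 23 salicylate genes and 1 of 11 jasmonate and ethylene genes were measured. SAG101, a partner of the immune regulator EDS1, rose in the mean of 11 lines by 0.16 ± 0.05 (limma adjusted p = 0.0309), called in 35 of 44 fits with 1 array left out. WRKY53, a transcription factor of senescence and defence, was not called. In this mean 18.9% of all probes were called, 10.3% higher. PDF1.2, a defensin induced by jasmonate and ethylene, had a lower ratio under 16 h on both probes, falling by 0.92 ± 0.18 (adjusted p = 0.00268) and by 0.86 ± 0.16 (adjusted p = 0.00238) over the 11 lines. Of all probes, 2.56% were called lower in that test over the 11 lines. The mean of PDF1.2 was lower under 16 h in 11 of 14 lines on either probe. In FCA its first probe had -2.80 and -1.75 under 16 h, against -0.58 and -0.95 under 8 h, the order also seen for the chitinase there. In FLC20 that probe had 0.02 and -0.32 under 16 h, against -1.11 and -1.03 under 8 h, the reverse of the chitinase.

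The named genes with the most similar profile were looked up over the 32 fitted group means, with the probes of a gene averaged, among 5163 other genes. The correlations are a description. The points share arrays and possibly wild type RNA. For AT2G43590 the most similar genes were the defensins PDF1.3 (r = 0.84) and PDF1.2 (r = 0.80), followed by GSTF3, a glutathione S-transferase (r = 0.69). The day length differences over the 11 lines were -0.55 ± 0.15 (limma adjusted p = 0.0299) for PDF1.3 and -0.48 ± 0.09 (adjusted p = 0.00402) for GSTF3. Both genes were picked by their correlation over groups that include those of this test. A lower ratio under 16 h is therefore partly built in, and these p-values add no separate evidence. In FD PDF1.3 was at -0.44, PDF1.2 at -0.66 and GSTF3 at 0.46, none of them called. GSTF3 thus did not share the sign of the chitinase there. Whether the defensins PDF1.2 and PDF1.3 share signal on the array was not tested.

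For AT4G33720 the most similar gene was AT4G16260, annotated as a beta-1,3-glucanase, a class of enzymes that also belongs to the pathogenesis-related proteins (r = 0.78). Its 2 probes averaged 0.27 in FD, -0.15 in FE and -0.52 in FCA, the signs of AT4G33720 with smaller sizes. Neither probe was called in these lines. The gene was picked by its correlation over groups that include them, so shared signs are partly built in. AT1G28350 (r = 0.70) and the peroxidase AT2G38380 (r = 0.65) followed, with 0.23 and 0.16 in FD. In the day length difference over the 11 lines, 3.67% of all probes were called. There 1 probe of AT4G16260 was called at -0.33 ± 0.07 (limma adjusted p = 0.0101), and the other, at -0.20 ± 0.09, was not (0.22). AT2G38380 was called at -0.24 ± 0.06 (adjusted p = 0.0239), and AT1G28350, at -0.13 ± 0.05, was not (0.173). AT4G33720 itself was not called, and its groups picked these genes. For AT1G72910 the most similar were UBP22, a ubiquitin-specific protease (r = 0.78), SWEET10, a sugar transporter (r = 0.73), and AT3G19010, annotated as an oxygenase (r = 0.72). SWEET10 stood at 0.91 in FD and UBP22 at 0.17, against 0.75 for AT1G72910.

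**Figure D4:**
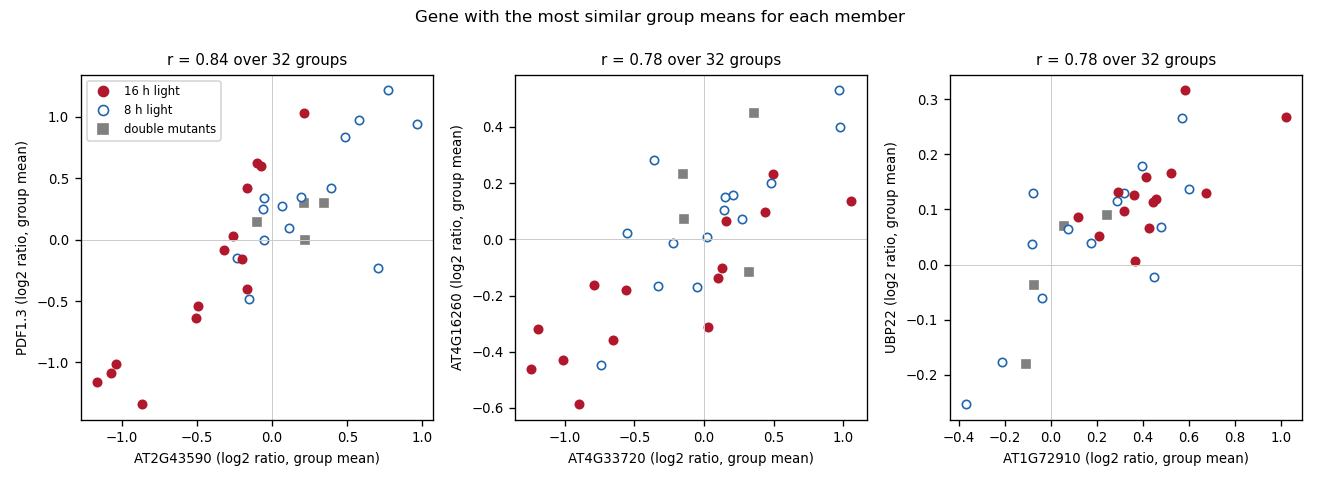
Fitted log2 ratio of each of the 32 groups for AT2G43590, AT4G33720 and AT1G72910 (horizontal axes, probes of a gene averaged) against the most similar other gene (vertical axes). Red filled points are 16 h groups, blue open points 8 h groups and grey squares double mutants, and for AT2G43590 and PDF1.3 the lowest points of both genes are 16 h groups.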

How the data were processed

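Total RNA of each line and of its comparator was measured on 64 arrays with 2 channels. The deposited values are linear ratios with a median of 1 on each array, which the authors put through a spatial normalization (Wilson and others), per the labels. Background correction and spot filters are not given in the sources used, nor is the ratio's direction or what was done to swapped arrays. An array held 13792 to 13824 ratios, of which 10.3% to 11.6% were exactly 1. Signal over background is unknown, and the number of arrays limits the precision.

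Ratios were taken to log2 and treated as already turned on swapped arrays. Names came from the platform annotation (6341 probes with 1 gene, 0 with several, 7483 with none), updated through the TAIR10.1 gene table, which matched 6322 and missed 19. One limma fit (limma 3.58.1, R 4.3.3) had a mean per group and a dye term, 30 residual and 5.17 prior degrees of freedom, no filter on low values, and was tested on simulated data. The dye term was called for 3373 probes. Line values are means of both day lengths, and errors after ± are limma standard errors unless named SD.

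Whether replicate numbers paired the arrays could not be decided from the residuals. Over probes these correlated at a median of 0.0278 for the same number and -0.0278 otherwise, with a lowest same-number value of -0.654. Within a group the residuals mirror each other, so the second median is the first with its sign turned. The same replicate number was the swapped array in most groups, so the dye term can absorb a shared replicate effect. The members, the 7 gene lists and the tests were chosen with earlier results of these data known. Named beside the members are the 3 most similar genes of each and list members called in a comparison described here. The alternatives were other scalings, no dye term, array weights, ratios of exactly 1 as missing, swapped arrays turned, GI_16h arrays kept apart, a replicate block, probes complete on all arrays, the line alone or against the other lines, and leaving out each array.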

Additional observations from a re-analysis of the deposited data

Results flagged for a closer look

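The lines lay on opposite sides of 0 for 2 of the genes, with all 4 arrays of a line on the same side. How many of all probes have such lines was not counted, so these values describe the members only. For AT4G33720 the means were 1.02 in FD, 0.73 in FWA and 0.31 in GAI, with all arrays above 0. In GAI 1 of these arrays was at nearly 0. The means were -0.82 in FCA and -0.87 in FE, with all arrays below 0. For the chitinase AT2G43590, probe SP0000115879 had 0.44 in GI with all arrays above 0, and -0.73 in FCA and -0.40 in FVE with all below 0. Probe SP0000123630 had 0.58 in GI, against -0.82 in FCA, -0.88 in FE and -0.51 in FVE. The difference between these pairs of lines was not tested. FD and FE are the lines by which these genes were chosen, and FD and FE values of their own genes are a description. The F-test over the 11 other lines called SP0000123630 (limma adjusted p = 0.0077), and not SP0000115879 (0.0941) or AT4G33720 (0.686).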

How the results depend on the processing

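The 3 chitinase calls for day length over the 11 lines were kept in each fit with 1 array left out and in 10 of 11 other alternatives; the exception was turning the swapped arrays, which gave 0 calls over all 6 probes, and differences of 0.0727 on SP0000115879 and 0.0725 on SP0000123630. Turning also left 0 calls in single lines and 0 for differences among lines. Calls in single lines, 4 as reported, were 8 with scaled arrays, 11 with array weights, 0 against the mean of the other lines and 12 where each line was fitted by itself, where GI had no residual degrees of freedom. Calls of day length differences in single lines were 3 with array weights. Calls of differences among lines, 1 as reported, were 3 with scaled arrays, 3 with quantile normalization, 3 with array weights and 2 with both GI_16h arrays kept apart. Leaving out 1 array gave 1 to 6 calls in single lines (1 without any FD array), 0 to 3 for day length in single lines, 1 to 2 in the mean of 11 lines (2 without FVE_16h replicate 2) and 1 to 3 for differences among lines (3 without either SOC1_16h array, 2 without FPA_8h replicate 2, FVE_16h replicate 2 or FY_16h replicate 1). With the replicate block there were 4 calls in single lines, 0 for day length in single lines, 0 in double mutants, 1 in the mean of 11 lines, 3 in its day length difference, 0 between classes and 1 among lines; it ended the day length call of AT1G72910 and changed no other count. The FLC20 call of AT1G72910 ended with scaled arrays, quantile normalization, no dye term, array weights, swapped arrays turned, GI_16h arrays kept apart and the line fitted by itself (adjusted p from 0.0523 to 0.993). Leaving out FVE or GI, and following called relatives with 1 array left out, was added after seeing the data. The causes were not tested.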
